A study of Homo sapiens with 4 samples.

Results

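CNOT4 and 9 core subunits of the CCR4-NOT complex were examined as 10 gene symbols of the 20457 listed in each deposited table. The rule that picks them uses gene symbols and no measured value, although the set was proposed with earlier results of these data known. All 10 were found in every table and passed the minimum of a mean TPM of at least 1. CNOT9 is listed under its older symbol RQCD1, which is used here. The samples were bulk cultures of the established human line HEK293, of embryonic kidney origin. The 2 siCNOT4 libraries came from cells given siRNA against CNOT4 and labelled CNOT4 knockdown. The 2 siControl libraries came from cells labelled WT that received a negative control siRNA. Both groups had 10 nM siRNA for 72 h, and the study's question was the part of CNOT4 in how codon usage affects gene expression. CNOT4 RNA was lower in both siCNOT4 libraries but still present, and its change was not called on TPM as deposited. Protein was not measured in these files, and nothing in the labels says that replicates were separate cultures. The p values below therefore measure the spread between these libraries, which may be technical.

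CCR4-NOT is the main cytoplasmic complex that shortens poly(A) tails, a step that starts the decay of most mRNAs and also lowers their translation. CNOT1 is the scaffold on which the other subunits assemble: CNOT2 and CNOT3 form the NOT module, CNOT9 binds recruiting factors, CNOT10 sits with CNOT11 at the other end of CNOT1, and the nucleases dock in the middle. Each complex holds a CAF1-type nuclease (CNOT7 or CNOT8) that in turn binds a CCR4-type nuclease (CNOT6 or CNOT6L), so the paralogues of a pair are alternatives for the same position. CNOT4, an E3 ubiquitin ligase with a RING finger, works with UBE2D-type E2 enzymes. It is a stable subunit in yeast but is loosely bound in human cells.

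RNA abundance was given as TPM, which is scaled per gene length and to the same sum in each library. The lengths that the authors used are not given in the sources used here. For CNOT7, annotated full-length transcripts were 1885 and 6913 nt, and all its exons together 10943 nt. Levels of different genes set side by side below, and their order, therefore hold only for the authors' lengths. The tables hold no read totals and the depth is unknown. The libraries differed in composition: the 100 most abundant features held 33.1% and 39.8% of all TPM in siControl and 25.5% to 26.6% in siCNOT4. The median log2 fold change of all 14208 tested features was 0.50 for TPM as deposited, -0.042 with library factors from trimmed means of M values (TMM), 0.019 after quantile normalization and -0.00092 after removal of each library's trend with transcript length and GC content. Directions of the 10 genes are therefore given under each scaling; other values are on TPM as deposited unless another scaling is named. The siControl replicates stood apart from each other, with an SD of 0.48 for their log2 difference over tested features against 0.20 in siCNOT4. Of the HEK293 markers, NEFL (307 to 384 TPM), VIM (354 to 917) and EYA1 (4.71 to 8.19) were present, PAX2 was low (1.10 to 1.91) and NEFM lower still (0.412 to 0.916). The 9 markers of blood, liver, endothelium and muscle summed to 1.30 and 1.44 TPM in siControl and 4.15 and 4.38 in siCNOT4. HBB was at 0 throughout, and DES was the highest, at 0.927 and 1.03 TPM in siControl and 3.46 and 3.54 in siCNOT4. DES was called higher as deposited (log2 fold change 1.19, limma adjusted p 0.0270) and after trend removal (1.01, 0.0146). It was not called after TMM scaling (0.79, limma adjusted p 0.0552) or quantile normalization (0.53, 0.0938). VIM, an intermediate filament gene, had 917 and 650 TPM in siControl and 369 and 354 in siCNOT4 (-1.09, limma adjusted p 0.0288). EYA1 was also called lower after quantile normalization (-0.68, limma adjusted p 0.0457) and trend removal (-0.73, 0.0162), and NEFL after trend removal (-0.76, 0.0306). The part of these differences in the results was not tested.

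CNOT4, the targeted gene (chromosome 7), was the least abundant of the 10 in every library. It had 6.43 and 4.73 TPM in siControl against 3.38 and 3.81 in siCNOT4, so both siCNOT4 libraries lay below both siControl libraries. Fitted on log2(TPM + 1), the fold change was -0.51 (SE 0.26; limma adjusted p 0.184), which did not pass the threshold of 0.05. A bulk library cannot tell fewer cells with CNOT4 mRNA from less of it in each cell.

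The other subunits offered a reference inside each library, and a ratio to them is free of library scaling. Their summed TPM was itself 521 and 377 in siControl and 618 and 607 in siCNOT4, so the ratio also moves with them. CNOT4 TPM divided by the summed TPM of the other 9 gave 0.0123 and 0.0126 in the siControl libraries, which nearly coincided although their TPM of CNOT4 differed 1.36-fold. The same ratio was 0.00547 and 0.00627 in the siCNOT4 libraries. On the log2 scale the means were -6.33 ± 0.018 and -7.42 ± 0.14 (SD of 2 libraries), a difference of -1.09, or 0.470-fold. That gap exceeded the spread of either group. The two-sided p from exact permutation of the libraries was 0.333, and no smaller one is possible with 2 against 2. After Benjamini-Hochberg adjustment over the 3 main ratios compared between groups, this permutation p was 0.5. Divided by the median of the other 9 instead, CNOT4 gave 0.116 and 0.136 in siControl and 0.0577 and 0.0690 in siCNOT4.

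Taken against each of the other members in turn, CNOT4 was lower in both siCNOT4 libraries than in both siControl libraries in 9 of 9 ratios. All 9 share the same CNOT4 values, so they are not separate results. How often ratios of CNOT4 to features outside the complex separate in this way was not tested. The fold ranged from 0.307 against CNOT6L to 0.799 against RQCD1. Set against the scaffold alone, CNOT4 amounted to 7.41% and 13.8% of CNOT1 TPM in siControl and to 2.98% and 3.52% in siCNOT4. This ratio differed far more between the siControl replicates than the ratio to all 9; CNOT1 itself differed 2.54-fold between them.

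**Figure D1:**
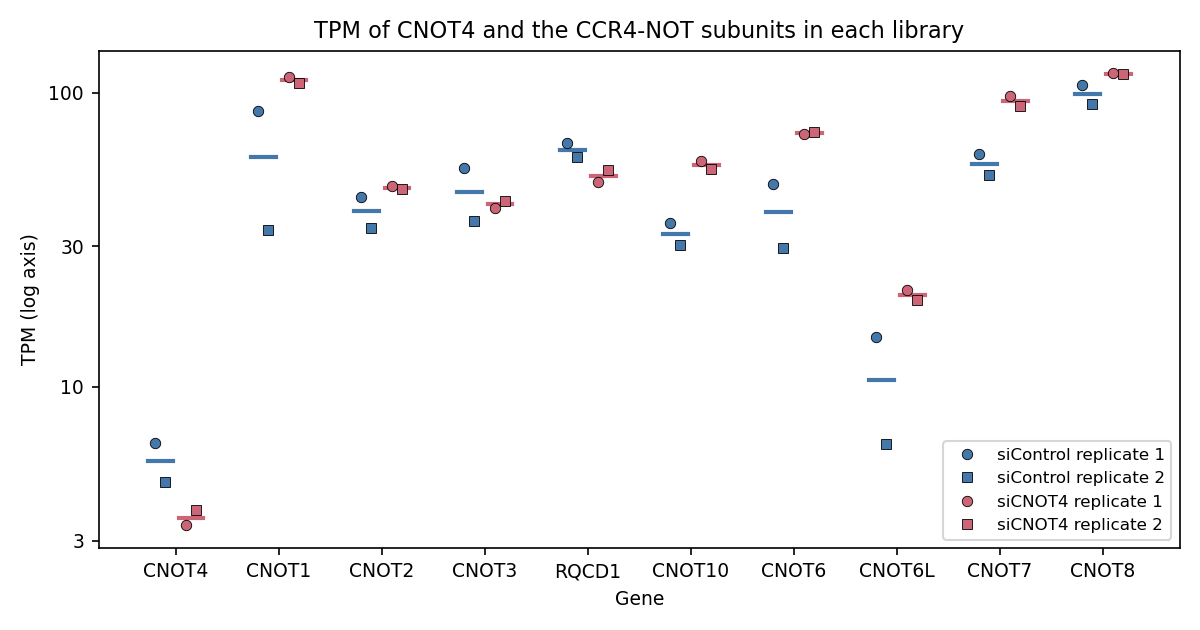
TPM (log axis) of CNOT4 and 9 CCR4-NOT subunits in each library; circles are replicate 1, squares replicate 2, and bars the means of 2 libraries. The siControl replicates are far apart for CNOT1 (86.7 and 34.2) and CNOT6L (14.8 and 6.38), whereas the siCNOT4 replicates lie close together for every gene.

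Of the 10 genes, 7 had both siCNOT4 libraries above both siControl libraries, 2 (CNOT4 and RQCD1) had both below, and CNOT3 overlapped. Among all tested features those arrangements were found in 66.4% and 10.6%, so the 7 higher subunits were close to the background share. At a limma adjusted p under 0.05, 0 of the 10 were called, against a background of 12.6% of features. At an unadjusted p under 0.05 there were 5 (CNOT1, CNOT6, CNOT6L, CNOT7 and CNOT10), all with positive fold changes, against 42.0% of features in either direction and 38.0% higher. The median fold change of the 10 was 0.49, next to 0.50 for all features.

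CNOT1 (chromosome 16), the scaffold, had the widest spread of the group. It had 86.7 and 34.2 TPM in siControl against 113 and 108 in siCNOT4, which gives a fold change of 1.01 on the log2 scale (SE 0.41, limma adjusted p 0.115). The siCNOT4 libraries were higher than both siControl libraries, but the siControl replicates differed by more (1.32 on the log2 scale) than the groups did. Leaving out siControl replicate 1 gave a fold change of 1.67, leaving out siControl replicate 2 gave 0.35, and the latter with TMM scaling gave -0.025.

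CNOT2 and CNOT3 dimerize at the carboxy-terminal end of CNOT1 and contact decapping and decay factors. CNOT2 (chromosome 12) had 44.3 and 34.7 TPM in siControl and 48.3 and 46.9 in siCNOT4, while CNOT3 (chromosome 19) had 55.4 and 36.6 against 40.4 and 42.9. CNOT2 was slightly higher in both siCNOT4 libraries and CNOT3 lay between its siControl values. The fold changes were 0.27 (limma adjusted p 0.340) and -0.11 (0.745). CNOT2 turned negative under each of the 3 other scalings, at -0.16 to -0.32, and CNOT3 was at -0.54 to -0.70.

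RQCD1 (CNOT9, chromosome 2), an armadillo-repeat subunit that binds recruiting factors such as GW182 proteins, was the other gene besides CNOT4 with no overlap and lower values in siCNOT4. It had 67.3 and 60.6 TPM in siControl and 49.6 and 54.5 in siCNOT4, or -0.29 on the log2 scale (SE 0.18, limma adjusted p 0.253). CNOT10 (chromosome 3), which binds the amino-terminal part of CNOT1 together with CNOT11, had higher values in both siCNOT4 libraries. It had 35.9 and 30.3 TPM in siControl and 58.7 and 55.1 in siCNOT4, a fold change of 0.77 (SE 0.20, limma adjusted p 0.0546). CNOT10 was above 0 under all 4 scalings (0.18 to 0.77), with no call in any of them.

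Which subunits were called differed between scalings. After TMM scaling CNOT4 (-0.997, limma adjusted p 0.0329), RQCD1 (-0.88, 0.0418) and CNOT3 (-0.70, 0.0460) fell. That is 3 of 10 lower, against 5.78% of features called lower (9.9% in either direction). The same 3 genes were called lower after removal of length and GC trends, where 13.6% of features were called lower (25.7% in either direction). Quantile normalization called CNOT4 (-1.15, 0.0252) and RQCD1 (-0.67, 0.0371), with CNOT3 at 0.0588 and 8.23% of features called lower (15.3% in either direction). CNOT4, CNOT3 and RQCD1 were below 0 under all 4 scalings, and CNOT1, CNOT10, CNOT6 and CNOT6L were above 0 under all 4. CNOT6L was at 0.0049 after trend removal with its longest transcript and 0.43 with its shortest. The scalings use the same 4 libraries, and the share of all features that keep their sign under all of them was not computed.

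**Figure D2:**
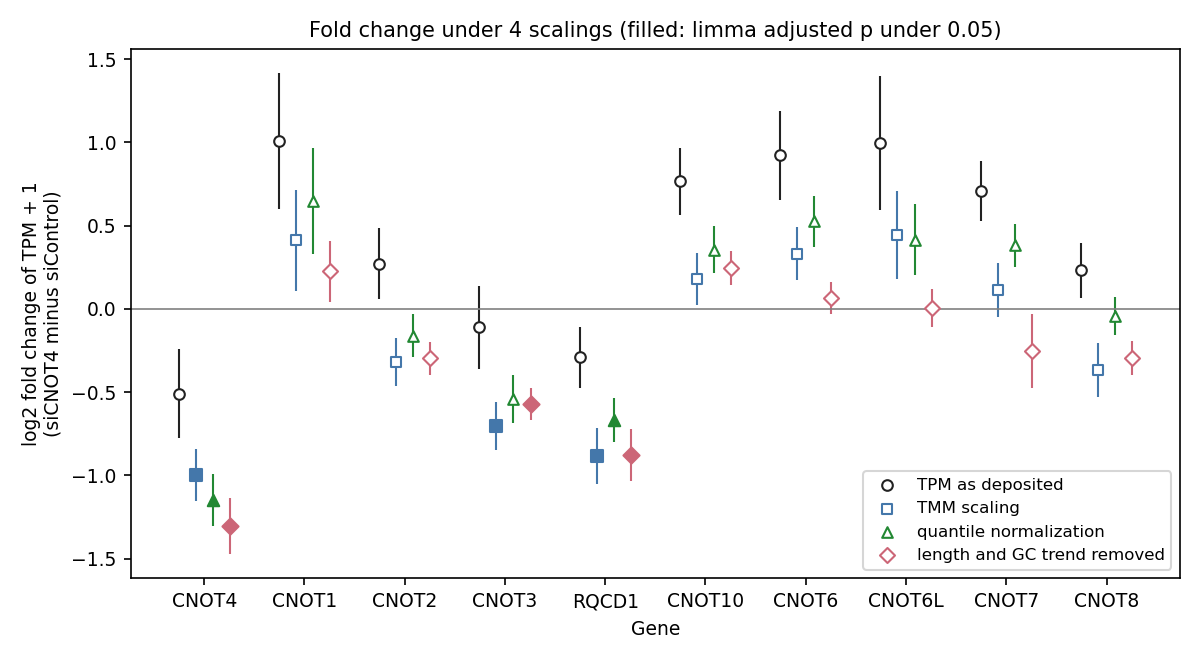
Log2 fold change of TPM + 1 (siCNOT4 minus siControl) for each gene under 4 scalings; bars are SE and filled symbols have a limma adjusted p under 0.05. Filled symbols occur only for CNOT4, CNOT3 and RQCD1, all below 0; CNOT2 and CNOT8 change sign between TPM as deposited and the other 3 scalings, and CNOT7 does so after trend removal.

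Leaving out a siControl library moved these counts. Without siControl replicate 2, 8 members were called: CNOT1, CNOT10, CNOT6, CNOT6L and CNOT7 higher (47.2% of features) and CNOT4, CNOT3 and RQCD1 lower (10.3%). Without siControl replicate 1, 7 were called higher, against 70.9% of features. In these fits the lone siControl library is assumed to vary like the siCNOT4 pair. With siControl replicate 2 left out and TMM scaling (50.3% of features called) or trend removal (50.6%), the same 6 were called: CNOT4, CNOT2, CNOT3, RQCD1 and CNOT8 lower and CNOT10 higher. With trends removed by the shortest transcripts, CNOT4 and RQCD1 were called lower (11.5% of features), and with the replicate number as a block 3 were called higher (23.5%).

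Promoter windows are shown for the 3 genes called lower after TMM scaling and after trend removal. CNOT3 was not called after quantile normalization (limma adjusted p 0.0588), and CNOT4 was the target of the siRNA. Whether these promoters share any control was not tested. The windows come from RefSeq (GRCh38.p14), run from 250 bases before to 50 after the annotated start, and have motif matches in capitals. The CNOT4 window is chr7:135510053-135510352 (minus strand), that of CNOT3 chr19:54137512-54137811 (plus) and that of RQCD1 chr2:218568589-218568888 (plus). The submitters' processing notes name another build, hg19, and these coordinates are those of the RefSeq table only.
CNOT4: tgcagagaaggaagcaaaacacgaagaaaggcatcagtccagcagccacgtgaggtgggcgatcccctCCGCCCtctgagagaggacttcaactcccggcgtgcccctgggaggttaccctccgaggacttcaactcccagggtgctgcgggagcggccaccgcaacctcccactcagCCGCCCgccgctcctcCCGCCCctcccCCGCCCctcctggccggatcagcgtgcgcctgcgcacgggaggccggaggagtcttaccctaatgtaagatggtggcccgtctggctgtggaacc
CNOT3: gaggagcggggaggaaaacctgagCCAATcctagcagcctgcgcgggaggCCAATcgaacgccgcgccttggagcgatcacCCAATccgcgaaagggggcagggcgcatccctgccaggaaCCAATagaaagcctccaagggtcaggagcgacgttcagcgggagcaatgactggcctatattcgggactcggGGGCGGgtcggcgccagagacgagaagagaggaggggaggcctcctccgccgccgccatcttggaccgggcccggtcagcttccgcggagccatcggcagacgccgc
RQCD1: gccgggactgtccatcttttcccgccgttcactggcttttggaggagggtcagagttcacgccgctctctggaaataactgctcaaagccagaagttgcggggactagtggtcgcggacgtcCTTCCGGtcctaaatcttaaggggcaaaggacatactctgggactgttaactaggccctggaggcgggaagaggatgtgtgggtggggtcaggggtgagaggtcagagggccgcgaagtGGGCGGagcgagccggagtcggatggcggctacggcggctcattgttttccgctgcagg

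Motifs were searched on both strands as exact letters: the SP1-type GC box (GGGCGG), an ETS-type site (CCGGAAG), the CCAAT box (CCAAT) and the TATA box (TATAAA). Within the 3 windows 0 pairs of different motifs overlapped. The CNOT4 window held 4 GC boxes and no other match, the CNOT3 window 4 CCAAT boxes and 1 GC box, and the RQCD1 window 1 GC box and 1 ETS-type match. Thus the GC box was the only searched motif present in all 3. Entries were listed for 8 of the 10 genes, 14 windows in all, since some genes have several starts. Of these 14, 12 held a GC box, against 45.0% of the 35116 promoters listed, 4 held a CCAAT box (34.6%), 1 held an ETS-type match (10.3%) and 0 held a TATA box (11.5%). Because 3 genes had 2 or more windows, the 14 are not independent and these shares are a description only. The GC box was also present in windows of CNOT2, CNOT6, CNOT6L and CNOT8. A match describes the letters and not a bound site.

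CNOT6 and CNOT6L encode the CCR4-type nucleases, of the exonuclease-endonuclease-phosphatase fold with leucine-rich repeats that bind CAF1. Their coding sequences were 74.0% identical over 1652 aligned positions, and the longest stretches without a difference were 20 nt. There were 3 of this length, and a window with those that start at coding positions 940 and 961 of both genes is shown, capitals marking the 34 positions of 140 that differ (GENCODE 29 transcripts, positions 880 to 1019 counted from the start codon).
CNOT6: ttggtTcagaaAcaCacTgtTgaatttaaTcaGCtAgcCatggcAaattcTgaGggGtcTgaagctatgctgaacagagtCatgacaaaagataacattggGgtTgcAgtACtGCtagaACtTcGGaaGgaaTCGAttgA
CNOT6L: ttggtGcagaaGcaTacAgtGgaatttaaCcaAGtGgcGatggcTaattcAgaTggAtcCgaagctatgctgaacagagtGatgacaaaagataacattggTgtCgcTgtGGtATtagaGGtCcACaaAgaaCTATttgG

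Of the 34 differences, 25 fell on codon position 3. For CNOT6L, 7.23% of the 50-nt words of its transcript also occurred in CNOT6LP1, whereas CNOT6 shared none with another gene.

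CNOT6 (chromosome 5) was the more abundant of the pair in every library. It had 48.8 and 29.7 TPM in siControl against 72.6 and 73.6 in siCNOT4, and CNOT6L (chromosome 4) had 14.8 and 6.38 against 21.4 and 19.8. Both genes were higher in both siCNOT4 libraries. The fold changes were 0.92 (SE 0.27, limma adjusted p 0.0633) for CNOT6 and 1.00 (SE 0.40, 0.114) for CNOT6L.

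The balance of the pair did not separate the groups. CNOT6 was 3.30 and 4.65 times CNOT6L in siControl and 3.39 and 3.72 times in siCNOT4, with overlapping values. The difference in log2 ratio was -0.14, with group means of 1.97 ± 0.35 and 1.83 ± 0.096 (SD of 2 libraries; exact two-sided permutation p = 1). It became 0.11 on leaving out siControl replicate 2 and -0.39 on leaving out siControl replicate 1, and trend removal gave 0.062 with the longest and -0.44 with the shortest transcripts. With the gene lengths that the authors used, CNOT6 exceeded CNOT6L in 4 of 4 libraries. An exact two-sided sign-flip test gave p = 0.125, the smallest that 4 libraries allow. Annotated full-length transcripts were 1890 to 8865 nt for CNOT6L and 6176 to 6303 nt for CNOT6.

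CNOT7 and CNOT8 encode the CAF1-type nucleases, which belong to the DEDD family, bind CNOT1 directly and are also held by BTG and TOB proteins. Their coding sequences were 71.3% identical over 858 positions, again with a longest shared stretch of 20 nt. CNOT8 (chromosome 5) was the most abundant of all 10 genes in every library, at 106 and 91.7 TPM in siControl and 116 and 115 in siCNOT4. CNOT7 (chromosome 8) had 61.8 and 52.5 TPM in siControl and 97.4 and 90.4 in siCNOT4. Both siCNOT4 values of CNOT7 were above both siControl values, with a fold change of 0.71 (SE 0.18, limma adjusted p 0.0519) that did not pass the threshold, and it was -0.25 after trend removal with the longest transcripts and 0.088 with the shortest. CNOT8 was at 0.23 as deposited and between -0.041 and -0.37 under the other scalings, with no call (limma adjusted p 0.299).

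The balance of this pair separated the groups as deposited. CNOT7 was 0.583 and 0.573 times CNOT8 in siControl and 0.838 and 0.782 times in siCNOT4. Put as a share, CNOT7 made up 36.8% and 36.4% of the pair in siControl and 45.6% and 43.9% in siCNOT4. The siControl replicates, which were far apart for CNOT1 and CNOT6L, lay close together here, and the groups did not overlap. The log2 ratio was 0.49 higher in siCNOT4 (-0.79 ± 0.018 against -0.30 ± 0.069, SD of 2 libraries), or 1.40-fold, with an exact two-sided permutation p of 0.333, the smallest possible (0.5 adjusted over the 3 ratios). With the gene lengths that the authors used, CNOT8 exceeded CNOT7 in 4 of 4 libraries (exact two-sided sign-flip p = 0.125).

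That difference changed with the handling of transcript length. The 2 annotated full-length CNOT7 transcripts were 1885 and 6913 nt, against 945 to 2708 nt for 4 CNOT8 transcripts. After removal of the trend with length and GC content the difference was 0.039 with the longest transcripts and 0.17 with the shortest. Which of them these cells used was not measured. For CNOT7, 2.53% of 50-nt words occurred in pseudogenes, and for CNOT8 none did.

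**Figure D3:**
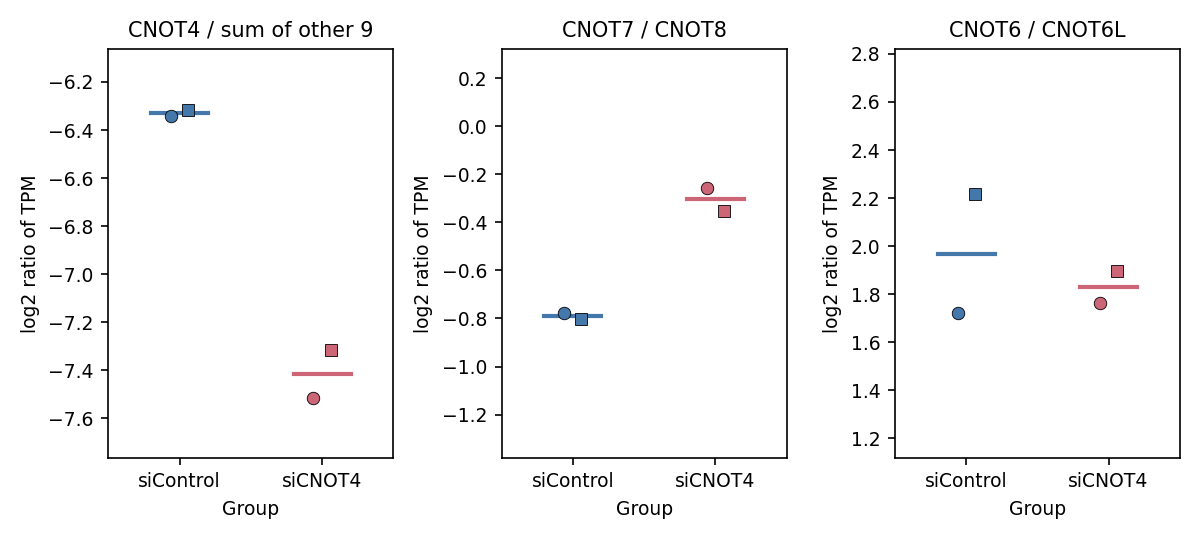
Log2 ratio of TPM inside each library for CNOT4 over the sum of the other 9 genes, CNOT7 over CNOT8, and CNOT6 over CNOT6L; circles are replicate 1, squares replicate 2, bars the means, and the 3 axes span the same number of log2 units. The groups separate for the first ratio (-6.33 against -7.42) and the second (-0.79 against -0.30) and overlap for the third.

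Across the classes of nuclease, the summed TPM of CNOT7 and CNOT8 was 2.64 and 4.0 times that of CNOT6 and CNOT6L in siControl and 2.27 and 2.20 times in siCNOT4. The siCNOT4 values were lower than both siControl values, and siControl replicate 2 stood out above the rest. The exact two-sided permutation p was 0.333 without adjustment, the smallest possible with 2 against 2. How this ratio depends on transcript length was not tested. The 4 nucleases together took 43.9% and 47.3% of the TPM of the 10 genes in siControl and 49.5% and 49.0% in siCNOT4. The 10 genes together summed to 527 and 381 TPM in siControl and 622 and 611 in siCNOT4.

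With the gene lengths that the authors used, the order of levels was tight in siCNOT4 and loose in siControl. In siCNOT4 the descending order was CNOT8, CNOT1, CNOT7, CNOT6, CNOT10, RQCD1, CNOT2, CNOT3, CNOT6L and CNOT4, and no neighbours overlapped. In siControl CNOT8 came first and CNOT4 last, and the means in between ran RQCD1, CNOT1, CNOT7, CNOT3, CNOT2, CNOT6, CNOT10 and CNOT6L. There each gene from RQCD1 to CNOT6 overlapped with the next, as did CNOT6L with CNOT4 across libraries, although CNOT6L was above CNOT4 inside each. RQCD1 ranked 3rd and 2nd of the 10 in siControl and 6th in both siCNOT4 libraries, while CNOT6 ranked 6th and 8th in siControl and 4th in siCNOT4. As shares of the 10-gene total, RQCD1 had 12.8% and 15.9% in siControl and 7.98% and 8.93% in siCNOT4, and CNOT3 10.5% and 9.61% against 6.51% and 7.03%. CNOT4 made up 1.22% and 1.24% in siControl and 0.544% and 0.623% in siCNOT4.

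Longer transcripts tended to have larger differences among the 10 genes. Between the siControl replicates the 2 longest transcripts differed most, CNOT6L (8865 nt) by 1.10 and CNOT1 (8471 nt) by 1.32 on the log2 scale, and the shortest, CNOT8 (2708 nt), by 0.21. There were exceptions: CNOT7 (6913 nt) differed by 0.23, and RQCD1 (4079 nt) differed least, by 0.15. Over the 10 genes the Spearman correlation with length was 0.697 for that replicate difference and 0.527 for siCNOT4 minus siControl; the points share libraries and genes are not replicates. Over 13766 tested features with a length the corresponding values were 0.619 and 0.385. CNOT10, at 2815 nt, was high for its length in the group difference (0.77), and CNOT4, RQCD1 and CNOT3, at 4079 to 4642 nt, were the lowest. Length was taken into account only in the trend removal above.

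**Figure D4:**
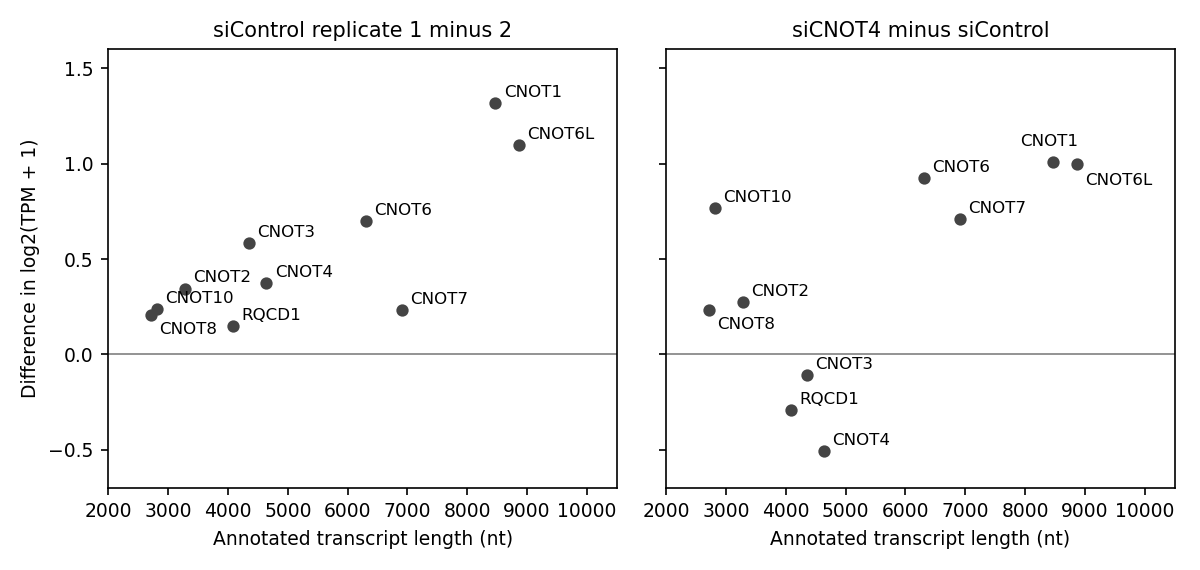
Difference in log2(TPM + 1) against annotated transcript length (nt) for the 10 genes, between the siControl replicates (left) and between the groups (right); each point is a gene. CNOT1 and CNOT6L lie at the upper right of both panels, and CNOT4, RQCD1 and CNOT3 lie below 0 only in the right panel.

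Neighbouring genes share exon sequence with some subunits, and whether the authors counted by strand is not given in the sources used here. In GENCODE 29, SETD6 covers 1086 of 10852 exonic bases of CNOT1 on the opposite strand, LENG1 548 of 6880 of CNOT3, and VPS37A 243 of 10943 of CNOT7. LINC01481 (295 of 13993 of CNOT2), FAXDC2 (163 of 3930 of CNOT8) and other smaller overlaps were not analysed here. SETD6 had 27.4 to 39.4 TPM (fold change 0.38, limma adjusted p 0.204), LENG1 31.4 to 48.0 (0.39, 0.214) and VPS37A 9.62 to 21.0 (0.70, 0.132). None of the 3 was called on TPM as deposited, against 12.6% of all features. The part of these overlaps in the values of the subunits was not tested.

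The further components of the complex had 0 of 3 called for TPM as deposited, against 12.6% of all features. At an unadjusted p under 0.05 there were 2, against 42.0% of all features. CNOT11, the partner of CNOT10, had 69.4 and 54.3 TPM in siControl and 94.0 and 95.8 in siCNOT4 (0.62, limma adjusted p 0.0704). It was higher in both siCNOT4 libraries as deposited, but its fold change was 0.023 after TMM scaling, 0.30 after quantile normalization and 0.21 after trend removal. RNF219, a RING E3 ligase found with the complex, had 19.0 and 13.8 against 27.8 and 25.0 (0.67, 0.112; -0.075 after trend removal). TNKS1BP1, a large protein that also associates with it, had 18.2 and 12.7 TPM in siControl against 11.7 and 12.2 in siCNOT4. It was called lower after TMM scaling (-0.88, limma adjusted p 0.0359), quantile normalization (-0.91, 0.0274) and trend removal (-0.81, 0.0126), but not as deposited (-0.32, 0.405). Of all features, 5.78%, 8.23% and 13.6% were called lower under these scalings in turn.

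Of the other deadenylases, 8 of 9 were tested (PNLDC1, at most 0.169 TPM, was not) and 0 were called as deposited, against 12.6% of all features. At an unadjusted p under 0.05 there were 3 (PAN2, PDE12 and ANGEL2), below the 42.0% of all features. All 8 fold changes were above 0 as deposited, where 81.2% of all features were, and 5 of 8 were after TMM scaling, where 47.0% of features were. They had a median of 0.75 against 0.50 for all features; the median was 0.19 after TMM scaling and 0.20 after quantile normalization or trend removal. PAN2, the catalytic subunit of the PAN2-PAN3 deadenylase, had 38.2 and 21.8 TPM in siControl and 58.1 and 64.0 in siCNOT4, higher in both libraries (1.05, limma adjusted p 0.0604). After trend removal it was the 1 deadenylase called (0.44, limma adjusted p 0.0387), where 25.7% of features were called in either direction.

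Among the BTG and TOB adaptors, which link CAF1-type nucleases to mRNA-bound proteins, 5 of 6 were tested (BTG4 was listed at 0). As deposited, 0 were called and 0 had an unadjusted p under 0.05, against 12.6% and 42.0% of all features. Their median fold change was 0.15 as deposited, -0.45 after TMM scaling, -0.26 after quantile normalization and -0.62 after trend removal, where TOB2 was also called lower. TOB1 had 32.9 and 29.2 TPM in siControl against 24.6 and 26.02 in siCNOT4. It was called lower after TMM scaling (-0.87, limma adjusted p 0.0410), quantile normalization (-0.78, 0.0357) and trend removal (-0.77, 0.0128). Of all features, 5.78%, 8.23% and 13.6% were called lower under these scalings in turn. Of the 4 UBE2D-type E2 enzymes, 0 were called as deposited, against 12.6% of all features. At an unadjusted p under 0.05 there were 2 (UBE2D1 and UBE2D3), against 42.0% of all features. All 4 were higher in both siCNOT4 libraries as deposited, as were 66.4% of features, with a median of 0.58, close to that of all features, and the median was -0.080 after trend removal. UBE2D2 and UBE2D3 were the abundant ones, at 114 to 139 and 111 to 176 TPM.

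On TPM as deposited, the features whose profile over the 4 libraries was nearest to that of CNOT4 were sought among 11395 others with a mean TPM of at least 5, by Euclidean distance of centred log2(TPM + 1). They were DUSP7 (distance 0.00373), COL2A1 (0.0444), NINJ1 (0.0555), PCBD2 (0.0597) and UBE2Z (0.0633). DUSP7 had 14.0 and 10.6 TPM in siControl and 7.84 and 8.73 in siCNOT4. By another measure, which leaves out the size of the change, 291 of the 11395 features had a Pearson r of at least 0.95 with CNOT4. With only 4 libraries a close profile does not show a link between genes. How often distances this small arise was not tested.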

How the data were processed

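Poly(A) RNA libraries were made with a stranded kit from total RNA of 4 HEK293 samples, per the labels' protocols, 2 per group. The authors deposited TPM for 20457 gene symbols per library, per the file headers. The submitters' processing notes name FastQC 0.11.2, STAR 2.5.3a, featureCounts and hg19, with no roles. The annotation and strand setting are not given in the sources used here. TPM keeps no depth, so no counting intervals are given.

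Sample titles gave the groups. Values were taken as log2(TPM + 1). The 14208 features that averaged at least 1 TPM were fitted with limma 3.58.1 (R 4.3.3; eBayes with a trend, no covariates, two-sided), with Benjamini-Hochberg adjustment over all of them and a threshold of 0.05. A pseudocount of 1 understates changes of low genes such as CNOT4. Ratios inside libraries used no pseudocount and were compared with exact permutation tests (SciPy 1.17.1). TMM factors were unweighted. Trends with transcript length and GC content were natural splines (4 degrees of freedom each) on each library's departure from the mean, over the 96.9% of tested features matched to GENCODE 29, with the longest transcript whose coding sequence reached 80% of the gene's longest. Coding sequences were aligned globally with Biopython 1.88. The named genes were all members, the further components of the complex, called genes of the pathway lists and the 5 nearest profiles; PAN2, TOB1, UBE2D2, UBE2D3, the overlapping genes and others in the lists were named after their values were seen. The members were picked by symbol, but the set, the lists and the alternatives were chosen with earlier results of these data known. The limma, TMM and trend steps were tested on simulated data. No protein sequences were used here.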

Additional observations from a re-analysis of the deposited data

How the results depend on the processing

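Replicate numbers have no stated meaning; same-numbered libraries deviated together with r = 0.171 across features. With the replicate number as a block, CNOT4 was at -0.51 (limma adjusted p 0.355), 3655 features were called in place of 1792, and 3 members in place of 0 (CNOT1, CNOT6 and CNOT7, all higher). The count of called features was 558 with a pseudocount of 0.1, 908 without a filter, 147 at a mean TPM of at least 5 (which leaves out CNOT4), 756 without a trend on mean expression, 3532 after removal of length and GC trends (1655 higher, 1877 lower) and 450 to 11311 with each library left out. With TMM scaling the calls were 585 higher and 821 lower and with quantile normalization 1010 and 1169, against 1608 and 184 as deposited. Among the fits with a library left out, the count was lowest without siCNOT4 replicate 2 and highest without siControl replicate 1. Members called numbered 3 after TMM scaling, 2 after quantile normalization, 3 after trend removal and 0 to 8 with each library left out: 8 without siControl replicate 2 (5 higher, 3 lower; 57.5% of features called) and 7 without siControl replicate 1 (all higher; 79.6%). CNOT4 was below 0 in every setting that tested it; it was -0.997 after TMM scaling, -1.15 after quantile normalization, -1.30 after trend removal and -0.70 to -0.32 with each library left out, passing the threshold without siControl replicate 2 (-0.70, limma adjusted p 0.00975).

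Signs turned as follows. CNOT2 was -0.32 after TMM scaling, -0.16 after quantile normalization and -0.30 after trend removal, and CNOT8 was -0.37, -0.041 and -0.29. CNOT7 was -0.25 after trend removal (0.088 with the shortest transcripts), and CNOT3 was -0.40 to 0.18 with each library left out, the highest without siControl replicate 1. The CNOT6 over CNOT6L difference was 0.062 after trend removal and -0.39 to 0.11 with each library left out. After trend removal the CNOT7 over CNOT8 difference was 0.039 and that of CNOT4 relative to the other 9 was -1.39; with each library left out these ranged from 0.44 to 0.54 and from -1.19 to -0.99.

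Settings added after the data were seen combined 2 choices or used the shortest transcripts. With TMM scaling and without siControl replicate 2, 7147 features and 6 members were called, CNOT4 was -0.99, CNOT1 -0.025, CNOT2 -0.27 and CNOT8 -0.25. With trends removed and without that library, 6969 features and 6 members were called, CNOT4 was -1.14, CNOT1 -0.032, CNOT2 -0.24, CNOT6L -0.079 and CNOT8 -0.22. With trends removed by the shortest transcripts, 2900 features and 2 members were called, CNOT4 was -1.05, CNOT2 -0.43, CNOT8 -0.080, the CNOT7 over CNOT8 difference 0.17 and the CNOT6 over CNOT6L difference -0.44. The causes of these changes were not tested. With 2 libraries a group and no read depth, small differences could not be detected.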
